A study of Mus musculus with 8 samples.

Results

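Copper import, export and delivery in the liver were followed through 10 genes chosen for their known role: Slc31a1, Slc31a2, Atp7a, Atp7b, Atox1, Ccs, Sod1, Cp, Steap4 and Xiap. Each gene was represented by the probe set that names it alone, and all 10 were found, each with 1 probe set, among 22180 genes measured. Livers of 27-day-old C57BL/6N mice were hybridised as total RNA to Affymetrix whole-transcript arrays, 1 array per mouse. The 4 knockout mice carried 2 floxed alleles of Sco1 and 1 copy of a Cre recombinase driven by the albumin promoter, which is active in hepatocytes. The labels do not say in which liver cells the alleles were removed. By their titles the 4 wild-type mice were floxed animals without Cre. Their genotype labels differed: wild-type mice 1 and 3 carried Cre with 1 floxed and 1 normal Sco1 allele, and wild-type mice 2 and 4 carried 2 floxed alleles and no Cre. Cre was thus present in every knockout mouse and in 2 of the 4 controls. The labels do not say whether any mice were littermates, so p-values measure the spread between these animals only.

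Copper enters hepatocytes mainly through the plasma membrane importer CTR1, the product of Slc31a1, after reduction of the metal by reductases such as STEAP4. Inside the cell small chaperone proteins hand it on: ATOX1 to the copper-pumping ATPases ATP7A and ATP7B, CCS to the antioxidant enzyme superoxide dismutase 1 (SOD1), and SCO1, within mitochondria, to cytochrome c oxidase. In hepatocytes ATP7B loads copper into the secreted ferroxidase ceruloplasmin (gene Cp) and moves excess copper toward the bile. Much of this system is controlled through protein stability and location, which an array of RNA does not measure.

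The windows just upstream of the annotated starts of 3 members are shown because they stand for import, export and metal reduction, and because Slc31a1 and Steap4 lie far apart in their response. The sequences are RefSeq promoter windows of the build GRCm38.p6, cut to the 250 bases before the start and written 5′ to 3′ on the gene's strand. Capitals mark matches, on either strand, to the metal response element core (TGCACNC or TGCGCNC), the GC box (GGGCGG, the letters bound by SP1) or a C/EBP site (TTGCNNAA). The Slc31a1 window lies at chr4:62360451-62360700 on the plus strand, that of Atp7b at chr8:22060075-22060324 on the minus strand and that of Steap4 at chr5:7960222-7960471 on the plus strand.
Slc31a1: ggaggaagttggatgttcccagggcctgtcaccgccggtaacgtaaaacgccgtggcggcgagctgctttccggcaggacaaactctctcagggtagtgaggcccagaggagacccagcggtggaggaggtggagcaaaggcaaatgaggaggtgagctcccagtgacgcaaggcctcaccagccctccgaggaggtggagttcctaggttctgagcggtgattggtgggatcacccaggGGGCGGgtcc
Atp7b: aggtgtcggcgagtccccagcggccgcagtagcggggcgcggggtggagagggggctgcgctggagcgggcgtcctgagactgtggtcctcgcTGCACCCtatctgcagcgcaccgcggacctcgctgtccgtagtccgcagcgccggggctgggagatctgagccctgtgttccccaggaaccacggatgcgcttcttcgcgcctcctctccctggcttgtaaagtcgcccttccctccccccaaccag
Steap4: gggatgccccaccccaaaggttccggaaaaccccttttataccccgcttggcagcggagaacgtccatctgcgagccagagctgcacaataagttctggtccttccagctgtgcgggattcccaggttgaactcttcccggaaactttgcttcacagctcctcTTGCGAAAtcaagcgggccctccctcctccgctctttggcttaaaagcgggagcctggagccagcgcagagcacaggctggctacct

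The Slc31a1 window held a GC box that begins 10 bases before the start, the Atp7b window a metal response element core that begins 157 bases before it, and the Steap4 window a C/EBP match that begins 87 bases before it. Windows were found for 9 of the 10 members, all but Ccs, and there were 12 windows in all because Cp and Xiap have several annotated starts. Of these, 6 held a GC box, 3 a metal response element core and 2 a C/EBP match, the other C/EBP match lying 70 bases before a start of Cp. Among all 32851 mouse windows of this length, 32.7% held a GC box, 21.4% a metal response element core and 9.56% a C/EBP match. A match of letters is a description of the sequence and shows neither binding nor use.

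Sco1 itself was checked first. It read 7.48, 7.62, 7.72 and 7.56 log2 units in knockout mice 1 to 4 and 7.84, 7.93, 8.19 and 8.04 in wild-type mice 1 to 4, so every knockout lay below every control. The difference was -0.41 ± 0.093 (SE, n = 4 each; limma, adjusted over all genes by Benjamini-Hochberg, adjusted p = 0.0633). A two-sided exact permutation test gave p = 0.0286, the least possible with groups of 4. That p restates the lack of overlap, and 5.49% of all genes had every knockout below every control. In a fit with 3 groups, Cre-carrying controls minus those without Cre gave 0.028 ± 0.14 (SE). Against these classes the knockout stood at -0.42 ± 0.12 and -0.39 ± 0.12 (SE; limma adjusted p of 0.233 and 0.266). Which exons the Sco1 probe set reads is unknown here, so Sco1 is a limited check on the deletion.

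Some arrays stood apart outside the copper genes. Knockout mouse 4 had a mean of 7.36 over the Y-linked genes Kdm5d, Eif2s3y and Uty, against 8.60 to 8.86 on the other 7 arrays, and both mouse 1 arrays read 9.66 and 9.86 for the clock gene Dbp, against 6.87 to 7.33 elsewhere. Of 10 hepatocyte markers none passed the test and none lay under the median level of the arrays. Their summed level, as log2 of the sum, was 16.34 to 16.36 in knockout and 16.32 to 16.37 in wild-type livers. That sum is carried by genes near the top of the table's range, among them Alb, which gave its highest value of 13.88, so it is a weak measure of a change in hepatocyte RNA. Serpina1a, a marker at a lower level and with near-identical relatives, stood at -0.32 ± 0.12 (SE; limma adjusted p = 0.226), with every knockout below every control. It read 10.75 in knockout mouse 4 and 11.25 to 11.33 in the other knockouts, against 11.38 to 11.57 in the controls. Serpina1a was picked after its values were seen, and the median difference of the 10 markers was 0.00081. Fewer cells of a type and less RNA per cell cannot be told apart in such whole-tissue samples.

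In the knockout livers Ccs, the chaperone that delivers copper to SOD1, was the member that fell, to 63.7% of the wild-type level. Steap4, which reduces copper and iron for uptake, stood at 75.5% of it and missed the threshold narrowly. The importer Slc31a1 and the exporter Atp7b stood at 94.7% and 91.8%, and neither passed the test. Over all genes 1.15% passed an adjusted p of 0.05 (0.717% as falls), and of the 10 members 1 passed, as a fall. At an unadjusted p under 0.05 there were 2 members, Ccs and Steap4, against 16.7% of all genes, so that share lay near the background. Negative differences were found for 8 of 10 members and for 42.8% of all genes, with medians of -0.12 and 0.027.

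**Figure D1:**
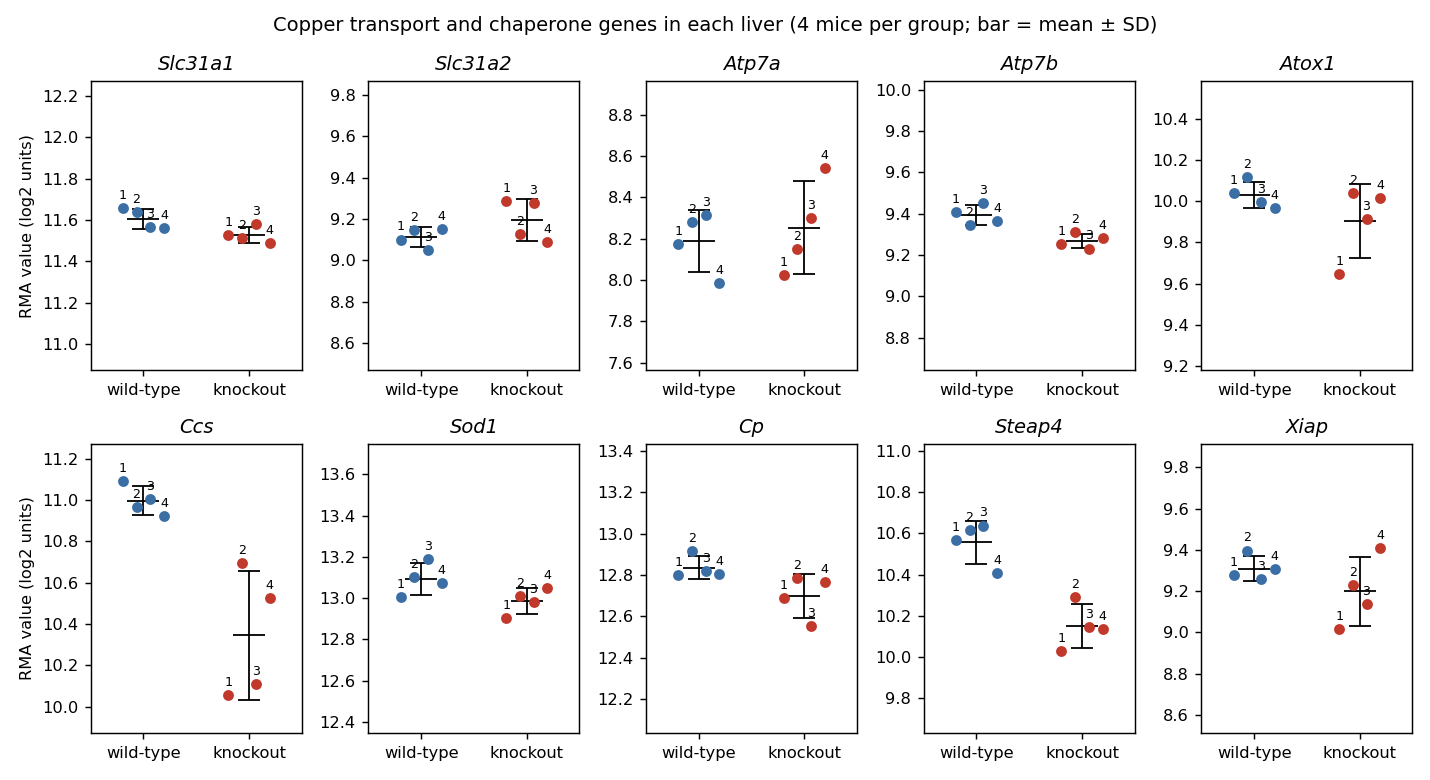
RMA values (log2 units, linear axis, the same span of values in each panel) of the 10 copper genes in 4 wild-type (blue) and 4 knockout (red) livers, with the mouse number at each point and bars for the mean ± SD. Ccs runs from 10.06 to 10.69 in the knockouts and from 10.92 to 11.09 in the controls, while Slc31a1 stays between 11.49 and 11.66 in all 8 livers.

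Ccs read 10.06, 10.69, 10.11 and 10.52 log2 units in knockout mice 1 to 4 and 11.09, 10.97, 11.01 and 10.92 in wild-type mice 1 to 4. The groups did not overlap, and knockout mice 1 and 3 were lower than knockout mice 2 and 4. The difference was -0.65 ± 0.13 (SE, n = 4 each; 95% interval -0.95 to -0.35; limma, Benjamini-Hochberg adjusted p = 0.0483), a 1.57-fold lower level. Spread was unequal: the SD was 0.31 in the knockouts and 0.071 in the controls, a ratio of 4.40 that 3.53% of all genes exceeded. With 1 array left out in turn, the call held only without knockout mouse 2 (adjusted p = 0.0271), and the adjusted p was 0.0917 without knockout mouse 1, 0.112 without knockout mouse 3 and 0.0596 without knockout mouse 4. Without wild-type mice 1, 2, 3 or 4 it was 0.0967, 0.109, 0.122 or 0.105. In these 8 fits the difference ranged from -0.77 to -0.55. It was -0.71 with the Y-linked level as a covariate (adjusted p = 0.0665) and -0.52 without both mouse 1 arrays (adjusted p = 0.162). Knockout mouse 4 alone was low in that Y-linked level, so here and below the covariate acted much like leaving out that array.

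Sod1, the enzyme that receives its copper from CCS, did not pass. Its values were 12.91, 13.01, 12.98 and 13.05 in knockout mice 1 to 4 and 13.01, 13.10, 13.19 and 13.07 in wild-type mice 1 to 4. Knockout mice 1 and 3 lay below every control and the other two within the control range. The difference of -0.11 ± 0.074 (SE; 95% interval -0.27 to 0.056; limma adjusted p = 0.496) bounded the knockout level at 82.9% to 104% of the wild-type level. Its values lay close to 13.88, the highest of the whole table.

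Xiap encodes a ubiquitin ligase best known as an inhibitor of caspases, which also binds copper and has CCS among its targets. It read 9.02, 9.23, 9.14 and 9.41 in knockout mice 1 to 4 and 9.28, 9.40, 9.26 and 9.31 in wild-type mice 1 to 4. Knockout mice 1, 2 and 3 lay below the lowest control and knockout mouse 4 was the highest of all, so the groups overlapped. The difference was -0.11 ± 0.092 (SE; 95% interval -0.31 to 0.091; limma adjusted p = 0.572). It was -0.050 without knockout mouse 1, -0.18 without knockout mouse 4 and -0.19 with the Y-linked level as a covariate.

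Steap4 separated the groups as fully as Ccs. Its values were 10.03, 10.29, 10.15 and 10.13 in knockout mice 1 to 4, all below those of wild-type mice 1 to 4, which were 10.57, 10.61, 10.64 and 10.41. The gap between the highest knockout, mouse 2, and the lowest control, mouse 4, was smaller than the range within either group. The difference was -0.41 ± 0.085 (SE, n = 4 each; 95% interval -0.59 to -0.22; limma, Benjamini-Hochberg adjusted p = 0.0503), a 1.33-fold lower level. Within groups it varied little and alike, with SDs of 0.11 and 0.10. No fit without 1 array passed (adjusted p 0.0533 to 0.133), whereas 6 other settings of the fit did, the lowest adjusted p being 0.0257. Without both mouse 1 arrays it was 0.162, with a difference of -0.36.

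**Figure D2:**
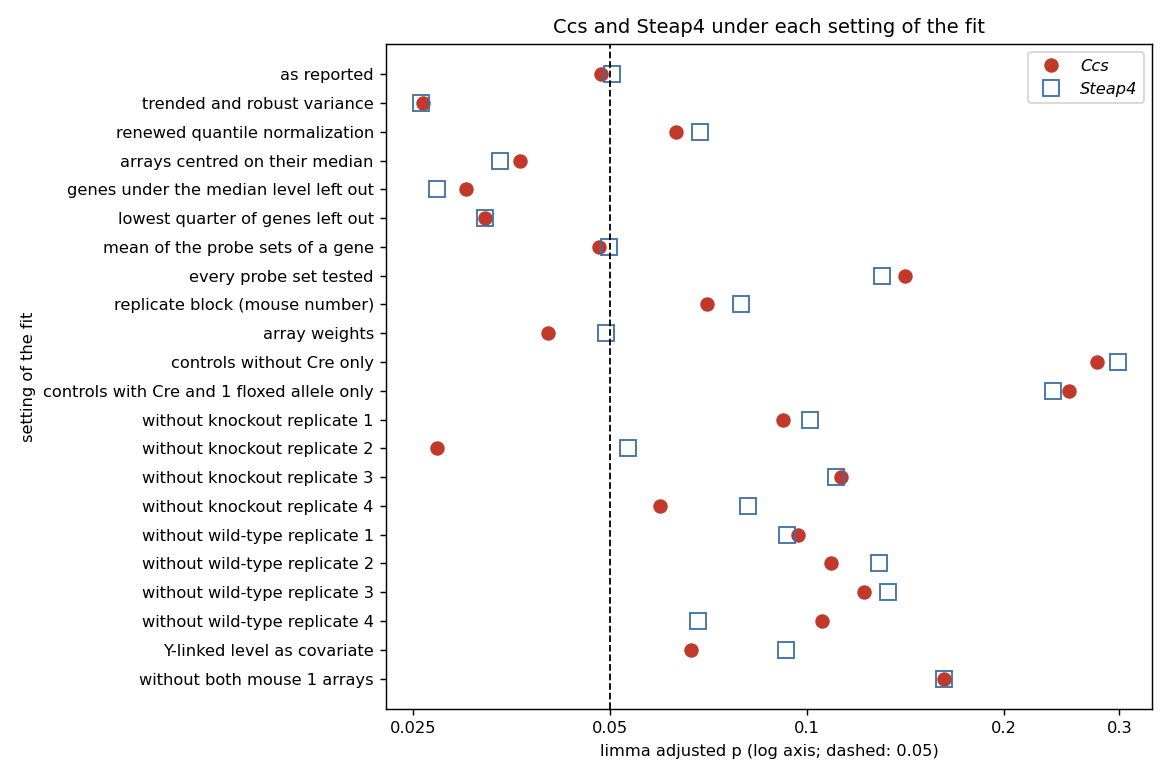
Limma adjusted p (log axis) of Ccs (filled circles) and Steap4 (open squares) in the reported fit and under 21 other settings, with a dashed line at 0.05. In the reported fit the genes lie on either side of the line at 0.0483 and 0.0503, and both lie to the right of it when 1 class of controls is used alone.

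The importers did not separate the groups. Slc31a1 read 11.53, 11.51, 11.58 and 11.49 in knockout mice 1 to 4 and 11.66, 11.64, 11.56 and 11.56 in wild-type mice 1 to 4. Knockout mice 1, 2 and 4 lay below the lowest control, and mouse 3 above it. The difference of -0.078 ± 0.069 (SE, n = 4 each; limma adjusted p = 0.598) had a 95% interval from -0.23 to 0.073, that is, a knockout level of 85.3% to 105% of the wild-type level. Slc31a1 was among the steadiest genes measured: its residual SD of 0.045 lay at percentile 1.17 of all genes. Slc31a2 encodes CTR2, a relative of CTR1 found mainly on internal membranes. It read 9.29, 9.13, 9.28 and 9.09 in knockout mice 1 to 4 and 9.10, 9.15, 9.05 and 9.15 in wild-type mice 1 to 4. Knockout mice 1 and 3 were the highest of the 8, and the other two lay within the control range. Its difference was 0.084 ± 0.077 (SE; 95% interval -0.085 to 0.25; limma adjusted p = 0.610).

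Among the exporters, Atp7b, the copper ATPase of hepatocytes, read 9.25, 9.31, 9.23 and 9.28 in knockout mice 1 to 4 and 9.41, 9.34, 9.45 and 9.36 in wild-type mice 1 to 4. All knockouts lay below all controls, with the highest knockout at 9.31 and the lowest control at 9.34. The difference was small, -0.12 ± 0.068 (SE, n = 4 each; 95% interval -0.27 to 0.027; limma adjusted p = 0.392), a knockout level of 82.7% to 102% of the wild-type level. Its residual SD of 0.042, at percentile 0.866 of all genes, was among the lowest measured. Atp7a, the related ATPase that dominates in most tissues other than liver, was the most variable exporter. It read 8.02, 8.15, 8.30 and 8.54 in knockout mice 1 to 4 and 8.17, 8.28, 8.32 and 7.98 in wild-type mice 1 to 4, with full overlap. The difference of 0.066 ± 0.118 (SE; limma adjusted p = 0.811) turned to -0.030 without knockout mouse 4, to -0.0021 without wild-type mouse 4 and to -0.044 with the Y-linked level as a covariate.

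Atox1, the chaperone that supplies both ATPases, read 9.65, 10.04, 9.91 and 10.01 in knockout mice 1 to 4 and 10.04, 10.11, 9.998 and 9.97 in wild-type mice 1 to 4. Knockout mouse 1 stood apart at the low end, and the groups overlapped. The difference of -0.13 ± 0.095 (SE, n = 4 each; 95% interval -0.34 to 0.083; limma adjusted p = 0.534) was -0.041 without knockout mouse 1. Cp, the main copper protein of plasma, read 12.69, 12.79, 12.55 and 12.77 in knockout mice 1 to 4 and 12.80, 12.92, 12.82 and 12.80 in wild-type mice 1 to 4. The groups did not overlap, although knockout mouse 2 nearly reached the 3 lower controls. Its difference was -0.14 ± 0.078 (SE; 95% interval -0.31 to 0.035; limma adjusted p = 0.404), and like Sod1 it lay near the top of the array's range.

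**Figure D3:**
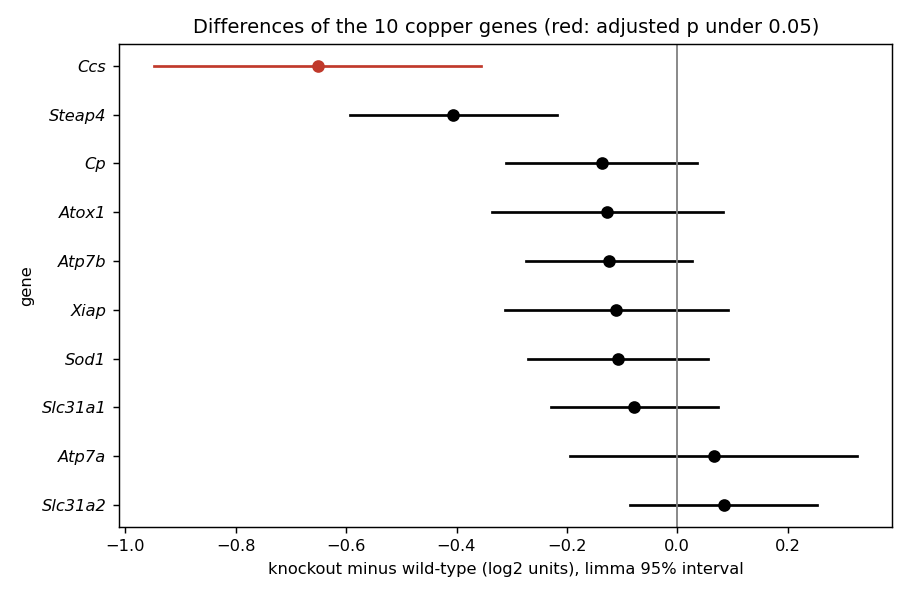
Knockout minus wild-type difference (log2 units) of each of the 10 copper genes with its limma 95% interval, 4 mice per group, red where the adjusted p is under 0.05. Ccs at -0.65 and Steap4 at -0.41 have intervals clear of 0, and the intervals of the other 8 genes include 0.

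The 4 members whose groups did not overlap were Ccs, Steap4, Cp and Atp7b, all lower in the knockout, against 5.49% of all genes with every knockout below every control. For 8 of 10 members, all but Ccs and Steap4, the 95% interval lay within a 1.5-fold change in either direction, as it did for 20431 of the 22180 genes. Differences among the knockout mice were larger than among the controls for 7 members, compared with 58.8% of all genes. Knockout mouse 1 gave the lowest knockout value of 6 members, Atp7a, Atox1, Ccs, Sod1, Steap4 and Xiap, and knockout mouse 2 of none. The Sco1 values did not follow the order of the Ccs values: knockout mice 1 and 3, the lowest in Ccs, had the lowest and the highest Sco1 reading of their group.

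The controls were also taken apart by genotype in a fit with 3 groups. Wild-type mice with Cre and 1 floxed allele and those without Cre differed by 0.10 ± 0.20 for Ccs and 0.093 ± 0.12 for Steap4 (SE, n = 2 each). None of the 10 members passed between the control classes, nor did any gene: 0% passed the adjusted threshold in limma and 3.03% an unadjusted p under 0.05. Against the Cre-carrying controls the knockout differed by -0.70 ± 0.17 for Ccs and -0.45 ± 0.11 for Steap4, with limma adjusted p of 0.191 and 0.185. Against the controls without Cre the differences were -0.60 ± 0.17 and -0.36 ± 0.11, with adjusted p of 0.230 and 0.255. Of the members 0 passed in either contrast, where 0.131% and 0.212% of genes did, and Ccs and Steap4 were the 2 members under an unadjusted p of 0.05 in each, where 11.8% and 11.5% of genes were. Both contrasts share the 4 knockout arrays. For Ccs and Steap4 every knockout lay below every control, so the same sign against either class was fixed by that. Neither gene passed the threshold against either class.

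Other genes of copper handling were described from lists, with medians set beside the median of 0.027 over all genes. The counts of these and the later lists stand beside 1.15% of all genes past the threshold and 42.8% with a negative difference. Of 9 measured genes of mitochondrial copper delivery 0 rose, 0 fell and 9 did not pass, with 8 negative differences and a median of -0.16. After Sco1 the smallest adjusted p belonged to Cmc2, Cmc1 and Cox19, small twin-cysteine proteins of cytochrome c oxidase assembly, at -0.27 ± 0.094, -0.24 ± 0.090 and -0.21 ± 0.089 (SE; limma adjusted p of 0.190, 0.219 and 0.259). Cmc2 read 7.80 to 8.13 in the knockouts and 8.16 to 8.41 in the controls, without overlap. Cox17, which hands copper to SCO1, stood at -0.014 ± 0.082 (SE) and Slc25a3, the mitochondrial phosphate and copper carrier, at 0.054 ± 0.070 (SE), neither past the threshold.

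Among 24 measured genes of copper storage and transporter trafficking 1 rose, 0 fell and 23 did not pass, with a median of -0.017. The gene that rose was Mt1, a metallothionein that binds zinc and copper, by 1.20 ± 0.22 (SE, n = 4 each; limma adjusted p = 0.0312). Mt1 read 10.06, 10.34, 10.01 and 9.39 in knockout mice 1 to 4 and 9.34, 8.46, 8.70 and 8.52 in wild-type mice 1 to 4, so that knockout mouse 4 and wild-type mouse 1 nearly met. The call was kept without knockout mouse 4 or wild-type mouse 1 (adjusted p of 0.0199 and 0.0152) and lost without any 1 of the other 6 arrays, with adjusted p up to 0.0913. It was also lost with every probe set tested (0.114), against the controls without Cre (1.46, adjusted p = 0.0643) and against those with Cre (0.93, adjusted p = 0.273). Mt2 stood at 0.98 ± 0.22 (SE; adjusted p = 0.0591). Next by adjusted p came App, the amyloid precursor protein gene, at 0.30 ± 0.086 and Commd7, of the COMMD family of sorting proteins, at -0.20 ± 0.071 (SE; adjusted p of 0.120 and 0.190). Neither Mtf1, the metal-sensing factor of the metal response element, nor Sp1 passed, at 0.11 ± 0.11 and -0.083 ± 0.080 (SE).

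**Figure D4:**
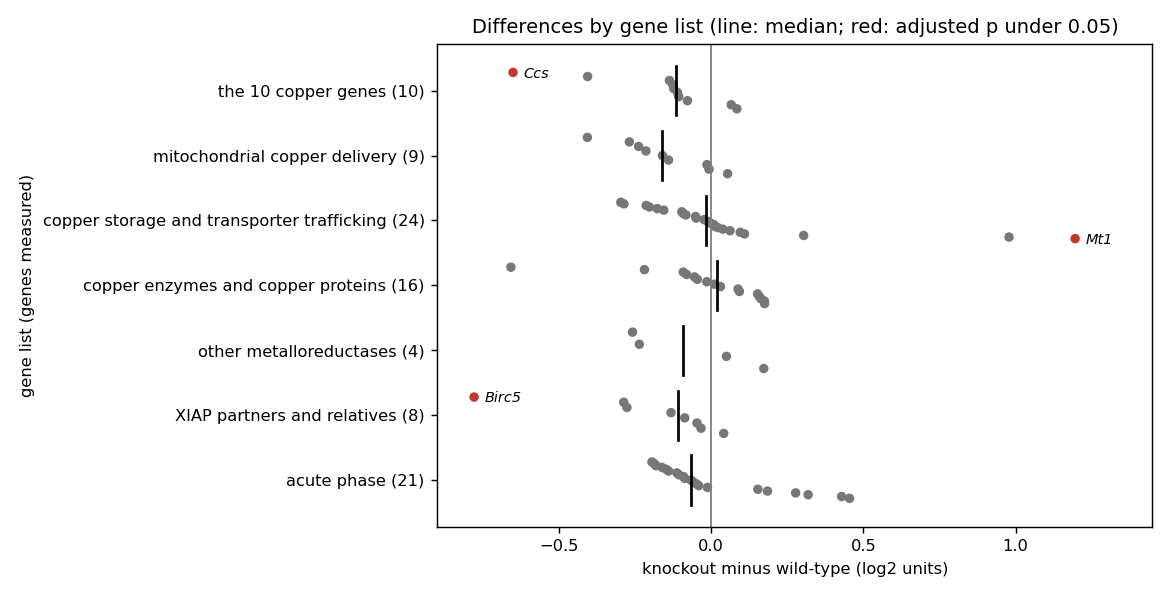
Knockout minus wild-type difference (log2 units) of every measured gene in the copper set and 6 further lists, 1 point per gene, with a black line at each list's median and red points where the limma adjusted p is under 0.05. Ccs at -0.65, Mt1 at 1.20 and Birc5 at -0.78 are the red points, and the medians lie between -0.16 and 0.021.

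Copper enzymes and other copper proteins stood on both sides of 0: of 16 measured, 0 rose, 0 fell and 16 did not pass, with a median of 0.021. The smallest adjusted p were those of the ferroxidase gene Hephl1 at 0.18 ± 0.072, the amine oxidase genes Aoc2 at 0.16 ± 0.079 and Aoc3 at 0.15 ± 0.087, and the collagen cross-linking enzyme gene Lox at -0.22 ± 0.11 (SE; limma adjusted p between 0.252 and 0.404). Of the 4 metalloreductase genes beside Steap4, 0 passed. Steap2 and Steap3, of the same family, stood at -0.26 ± 0.12 and -0.24 ± 0.085, Cybrd1 at 0.17 ± 0.084 and Steap1 at 0.050 ± 0.073 (SE; limma adjusted p between 0.204 and 0.761). Hephl1, Aoc3, Lox, Cybrd1 and Steap1 lay under the median level of the arrays on every array, so their differences are those of dim probe sets. Steap1 was the dimmest of these, at 2.89 to 3.05 in the knockouts and 2.86 to 2.97 in the controls.

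In the list of XIAP partners and relatives, of 8 measured genes 0 rose, 1 fell and 7 did not pass, with a median of -0.11. The member that fell was Birc5, which encodes survivin, a protein of the mitotic spindle as well as of the inhibitor of apoptosis family, by 0.78 ± 0.14 (SE, n = 4 each; limma adjusted p = 0.0312). Its knockout values were 6.03, 6.43, 6.42 and 6.56 and its wild-type values 7.25, 7.42, 6.82 and 7.07, in the order of mice 1 to 4. The call was kept without knockout mouse 4 or wild-type mouse 3 and lost without any 1 of the other 6 arrays (adjusted p up to 0.0807). It was also lost with every probe set tested (0.109), without both mouse 1 arrays (0.114) and against the controls without Cre (0.116) or with Cre (0.249). Diablo, a mitochondrial protein that binds XIAP, stood at -0.28 ± 0.072, Birc2 at -0.29 ± 0.13 and Htra2 at -0.13 ± 0.090 (SE; limma adjusted p of 0.0962, 0.307 and 0.486).

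Cp and Steap4 are both known to respond to inflammation, so acute phase genes were set beside them. Of 21 measured, 0 rose, 0 fell and 21 did not pass, with 15 negative differences and a median of -0.066. Lcn2, an iron-scavenging protein of inflammation, stood at 0.45 ± 0.11, Apcs at 0.32 ± 0.10, Crp at 0.18 ± 0.073 and Stat3 at -0.19 ± 0.083 (SE; limma adjusted p of 0.0713, 0.164, 0.238 and 0.271). The groups did not overlap for 8 of the 21, a count over both directions for which no share of all genes is at hand. Every knockout lay below every control for Saa3, Hp, Orm1, Fga, Fgb and Stat3, as for Cp and Steap4, against 5.49% of all genes. The differences of Saa3, Hp, Orm1, Fga and Fgb were small, from -0.19 to -0.091 (limma adjusted p between 0.280 and 0.525). Every knockout lay above every control for Lcn2 and Crp, and the share of all genes that did so was not counted. Lcn2 read 9.02 to 9.48 in the knockouts and 8.73 to 8.83 in the controls. Genes of this list other than those 4 of smallest adjusted p are named for their separation, after their values were seen.

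No marker of another cell type passed the test: 0 of 4 for cholangiocytes, 0 of 8 for Kupffer cells and macrophages, 0 of 6 for neutrophils, 0 of 7 for lymphocytes, 0 of 7 for stellate cells, 0 of 6 for endothelial cells, 0 of 1 for erythroid cells, 0 of 6 for skeletal muscle and 0 of 4 for adipocytes, cells in which Steap4 is also known to be active. The log2 summed level was higher in every knockout than in every control for 3 of these lists. It was 9.33 to 9.62 against 9.15 to 9.24 for lymphocytes, 12.80 to 12.96 against 12.63 to 12.79 for endothelial cells and 8.88 to 9.24 against 8.70 to 8.78 for skeletal muscle. The groups overlapped for cholangiocytes (8.87 to 9.22 against 9.02 to 9.31), macrophages (12.88 to 13.30 against 12.71 to 13.17), neutrophils (7.95 to 8.16 against 7.82 to 8.05), stellate cells (12.83 to 12.94 against 12.87 to 12.93), the erythroid gene (6.64 to 6.76 against 6.55 to 6.65) and adipocytes (7.46 to 7.78 against 7.42 to 7.69). All 6 neutrophil and all 4 adipocyte markers lay under the median level of the arrays, as did 4 lymphocyte markers and the muscle markers Myh1, Myh2 and Ckm. Such a sum follows its brightest markers most, and the share of all genes with every knockout above every control was not counted. Within the macrophage list Cd68 stood at 0.36 ± 0.093 (SE; limma adjusted p = 0.0921), with every knockout above every control. The groups overlapped for the other markers of that list. In other lists every knockout also lay above every control for the lymphocyte marker Cd3e, the endothelial marker Clec4g and the muscle marker Myh2. These stood at 0.37 ± 0.12, 0.17 ± 0.078 and 0.38 ± 0.10 (SE; limma adjusted p of 0.155, 0.290 and 0.0963). Cd68 was thus not alone in its separation. The part of these summed levels in the differences of Ccs and Steap4 was not tested.

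Genes of the most like pattern were sought for the members with an adjusted p under 0.10, by the smallest root mean square difference between profiles over the 8 arrays, each centred on its own mean. For Ccs these were Selenbp2, Serpina11 and Pdia5, at 0.098, 0.12 and 0.13 log2 units, where the median gene lay at 0.42 and the Ccs profile itself had a root mean square of 0.38. Their differences were -0.65, -0.50 and -0.50, with limma adjusted p of 0.0543, 0.0634 and 0.0510. For Steap4 they were Lgr4, Nsmce1 and Tm2d2, at 0.052, 0.053 and 0.061, with the median gene at 0.27 and the Steap4 profile at 0.22. Their differences were -0.36, -0.34 and -0.45, with limma adjusted p of 0.0526, 0.0922 and 0.0526. The genes like Ccs and Steap4 were chosen from all genes by profiles that include the group difference. Similar differences, and distances under that of the median gene, follow from the choice.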

How the data were processed

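Total RNA of 8 mouse livers was measured on 1 Affymetrix whole-transcript array each, in 2 groups of 4 taken from the titles. The authors deposited 1 expression value per probe set and array; the submitters' processing notes name RMA and the oligo package, version 1.24. RMA subtracts background, equalises the distributions of the arrays and condenses each probe set, and it compresses large differences. The log2 scale of the authors' values is an inference from RMA and from their range, 1.28 to 13.88. Neither chip definition nor build is given in the sources used here. Of 39137 probe sets, 23521 had 1 gene symbol in the platform annotation, 1814 several and 13802 none. Where a gene had several probe sets (1082 genes), the one with the highest mean was taken.

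Differences were fitted over all 22180 genes by limma's lmFit and eBayes (limma version 3.58.1, R version 4.3.3), with two-sided tests and a Benjamini-Hochberg threshold of 0.05, after a check on simulated data. Python version 3.11.15, pandas version 2.3.3 and matplotlib version 3.10.9 made tables and plots. Alternatives covered the variance model, normalization, centring, filters, probe set choice, mouse number as a block, array weights, control classes and each array left out. The Y-linked covariate and leaving out both mouse 1 arrays were added after seeing the data. As knockout mouse 4 alone was low in the Y-linked level, that covariate is not a separate check from leaving out that array. Members and lists were chosen with earlier results of these data known. The text names the members, Sco1, list genes past the threshold or of smallest adjusted p (up to 4 a list), and the 3 genes most like each member under an adjusted p of 0.10. Cox17, Slc25a3, Mtf1, Sp1, Loxl4, Serpina1a, Cd68, Cd3e, Clec4g and Myh2 were named outside that rule, after their values were seen. Only the number of mice sets the precision.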

Additional observations from a re-analysis of the deposited data

Results flagged for a closer look

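In groups of 4 mice, 1 value can stand far from the other 3, and such a gap arises by chance in about 1 of 20 groups. Among 80 groups of the genes named by the rule above, 5 had one, all in the wild-type group. Genes named outside that rule were not checked. Serpina1a was such a gene, at 10.75 in knockout mouse 4 with the next knockout at 11.25. The copper member among the 5 was Cp, at 12.92 in wild-type mouse 2, with the next control at 12.82. Commd7 read 8.19 in wild-type mouse 4, below 8.31 in the next control. Aoc2 read 6.77 in wild-type mouse 4 (next 6.56), Aoc3 5.45 in wild-type mouse 3 (next 5.21) and Pdia5 11.04 in wild-type mouse 2 (next 10.90).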

How the results depend on the processing

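Slc31a1, Atp7b, Atox1, Sod1, Cp, Xiap and Slc31a2 kept their direction and stayed short of the threshold under all 21 alternatives. Atp7a reversed to -0.044 with the Y-linked level as a covariate, and ranged from -0.030 to 0.14 with 1 array left out in turn. Ccs missed the threshold at -0.61 after renewed quantile normalization, at -0.65 with every probe set tested, at -0.60 against the controls without Cre, at -0.70 against those with Cre, at -0.71 with the Y-linked covariate and at -0.52 without both mouse 1 arrays. With 1 array left out it ranged from -0.77 to -0.55, passing only at -0.77, without knockout mouse 2. Steap4 passed at -0.41 with a trended and robust variance, with either filter on dim genes and with the mean of probe sets, at -0.44 with centred arrays and at -0.39 with array weights. Sco1 passed at -0.41 with the trended variance and either filter. The count of copper members that fell was 2 in those 6 settings in which Steap4 passed, 0 with quantile normalization, every probe set, the block, either control class, the covariate or no mouse 1 arrays, and 0 to 1 with 1 array left out.

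Mouse number is shared between the groups in the titles, but same-numbered mice correlated at 0.27, -0.022, 0.031 and -0.10 in their deviations from the group means, so the number was not taken as a pairing. With it as a replicate block Ccs missed the threshold at -0.65 (adjusted p = 0.0702), 0 members fell, and 68 genes rose and 142 fell.

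Over all genes 96 rose and 159 fell, 37.6% of the calls being rises. The counts were 159 and 300 with the trended variance, 86 and 271 (24.1% rises) with centred arrays, 155 and 301 with the weaker filter on dim genes, 123 and 319 with the stronger one (27.8% rises), 131 and 245 with array weights, 17 and 25 with every probe set tested, 7 and 9 against controls without Cre, 4 and 2 against those with Cre, 45 and 106 with the Y-linked covariate and 28 and 37 without both mouse 1 arrays. With 1 array left out they ranged from 29 to 65 rises and 60 to 119 falls. The number of arrays, 4 in each group, limits every one of these calls.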

Other observations

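Loxl4, a lysyl oxidase of the copper enzyme list, had the largest difference of that list, -0.66 ± 0.42 (SE; limma adjusted p = 0.458), with both mouse 1 arrays lowest. It read 7.28 in knockout mouse 1 and 7.49 in wild-type mouse 1, against 7.96 to 8.70 in the other knockouts and 9.08 to 9.41 in the other controls. Over all 8 arrays the groups overlapped. They did not on those 6, but these arrays were chosen after the values were seen. The share of all genes that separate on them was not counted. The mouse 1 arrays also stood apart in Dbp.

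Within the knockout group the copper genes with the widest range over mice were Ccs, over 0.64 log2 units, and Atp7a, over 0.52. Knockout mouse 4, lowest in the Y-linked genes, read highest of all 8 mice in Atp7a (8.54) and Xiap (9.41), both X-linked in the build GRCm38.p6. It was also the knockout with the lowest Mt1 and Mt2, at 9.39 and 10.01.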
